A study of Rattus norvegicus with 10 samples.

Results

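The 58 genes described here are the cytochrome P450 genes measured in rat liver, 58 of the 13438 genes with a symbol on the array. They were chosen by name alone: every gene whose symbol begins with Cyp and a family number was taken, except 5 genes of bile acid and cholesterol synthesis (Cyp7a1, Cyp7b1, Cyp8b1, Cyp27a1 and Cyp51). The rule itself uses no measured value, but it was set with earlier results of these data known. They carried 69 probes and fell into 13 families by number. Family 2 was the largest with 27 genes, family 4 held 11, families 3 and 11 held 4 each, family 1 held 3 and family 26 held 2, and the families 17, 19, 20, 21, 24, 27 and 39 held 1 each.

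P450 enzymes are heme proteins that put 1 oxygen atom into a substrate, most of them in the endoplasmic reticulum of the hepatocyte, with electrons passed on by the reductase Por. Families 1 to 3 clear drugs and other foreign chemicals as well as steroids, family 4 hydroxylates fatty acids, family 26 removes retinoic acid, and most of the others make or break down steroid hormones and vitamin D. Their transcription is set in large part by ligand-activated receptors, among them the aryl hydrocarbon receptor for family 1, CAR (Nr1i3) and PXR (Nr1i2) for Cyp2b and Cyp3a, and PPAR-alpha (Ppara) for Cyp4a, and in the rat many hepatic forms differ between the sexes under the control of growth hormone.

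Liver RNA came from male Wistar rats in 3 groups: 3 control rats without irradiation, 3 rats given total-body irradiation (TBI) at 6.5 Gy, and 4 rats given MASM and then the same irradiation (MASM + TBI). MASM, a derivative of the plant alkaloid matrine, had been given orally in water at 30 mg/kg a day for 3 days before the gamma irradiation, and all livers were taken 24 h after it. The dose is that of the array labels, and the text of the study names a lower one. The labels assign the arrays to groups as used here, whereas the column names of a heat map in the study place the TBI arrays under control and the control arrays under TBI. The markers of T and B lymphocytes, cells that irradiation is known to deplete, had a summed intensity of 598 to 730 in the arrays labelled control and of 193 to 378 in those labelled TBI. Each rat had 1 array, and precision is limited by how many rats there were. The 3 TBI arrays filled slide 2 alone, so TBI and its slide cannot be told apart, while slide 1 carried all control arrays together with that of MASM + TBI rat 3, and slide 3 the remaining 3. The share of spots well above background was 57.2% to 59.9% on control arrays, 64.1% to 70.1% on TBI arrays and 56.2% to 60.2% on MASM + TBI arrays, and its part in the results was not tested.

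A signal below is the log2 of the intensity after quantile normalization between the 10 arrays, and differences are log2 fold changes from limma with the 95% confidence interval in brackets. A gene is called changed at an adjusted p under 0.05 with a difference of at least 1.5-fold. Where a gene had several probes, the brightest one stands for it. Groups said not to overlap are described gene by gene, and the share of all genes without overlap was not counted. The livers carried their defining cells, as all 10 hepatocyte markers were well above background on every array. Their summed intensity was 1080000 to 1140000 in control, 1010000 to 1240000 in TBI and 1120000 to 1190000 in MASM + TBI. By limma 0 of the 10 were called in any comparison. Against control, 4 had an unadjusted p under 0.05 after TBI and 5 after MASM + TBI (25.3% and 20.5% of all genes). Estimates ran from -0.52 to 1.53 after TBI and from -0.40 to 1.13 after MASM + TBI, with Tat highest in both. Of the 58 P450 genes, 44 were well above background on all 10 arrays, 6 on some of them (Cyp1a1, Cyp1b1, Cyp2j10, Cyp2s1, Cyp11b3 and Cyp21a1), and 8 on none (Cyp2a3, Cyp2g1, Cyp4x1, Cyp11a1, Cyp11b1, Cyp11b2, Cyp19a1 and Cyp24a1).

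The first comparison asked which P450 genes differed 24 h after TBI. Of the 58 genes, 7 were called: Cyp2a1, Cyp4a3 and Cyp4a8 were up-regulated, and Cyp2b1, Cyp2b12, Cyp2t1 and Cyp26b1 were down-regulated. Over all 13426 genes tested, 2.44% were called up and 2.74% down, against 5.17% and 6.9% of the P450 genes. At an unadjusted p under 0.05 with the same fold, the P450 calls were 6 up and 8 down, where all genes gave 7.54% up and 5.59% down. At an unadjusted p under 0.05 whatever the fold stood 23 of the 58 genes, beside 25.3% of all genes. The genes added at the threshold with the fold were Cyp1b1, Cyp4a1 and Cyp4a2 upward and Cyp1a2, Cyp2c11, Cyp2j4 and Cyp4f5 downward. The median difference of the 58 genes was -0.12, beside -0.01 over all genes. Most of these calls were close to the threshold, and a model with the 2 groups alone called 0 of the 58 genes after adjustment. Leaving out 1 rat at a time gave 1 to 7 calls. There was 1 call without control rat 2 or 3, and 2 without TBI rat 2 or MASM + TBI rat 1, 2 or 4. There were 4 without control rat 1, TBI rat 1 or MASM + TBI rat 3, and 7 without TBI rat 3. These counts can include genes not called with all rats. Without TBI rat 3, Cyp2a1, Cyp2b1, Cyp2b12 and Cyp4a3 lost their calls and other genes gained one.

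After MASM + TBI, 2 of the 58 genes were called against control, Cyp2t1 and Cyp26b1, both down-regulated and none up-regulated. All genes gave 0.931% up and 1.97% down in this comparison. At the unadjusted threshold 7 P450 genes lay above control and 6 below, where all genes gave 3.5% up and 5.68% down. An unadjusted p under 0.05 at any fold was found for 16 of the 58 genes and for 20.5% of all genes. The 7 were Cyp2a1, Cyp2e1, Cyp4a2, Cyp4a3, Cyp4a8, Cyp4v3 and Cyp17a1, and the 6 were Cyp1a1, Cyp1a2, Cyp2c11, Cyp2t1, Cyp3a62 and Cyp26b1. Leaving out 1 rat at a time gave 0 to 5 calls, 0 without control rat 3 or MASM + TBI rat 1 or 4, 1 without control rat 2 or MASM + TBI rat 2, 3 without TBI rat 3 and 5 without control rat 1 or TBI rat 1. Both comparisons share the control rats, so their values stand side by side below and were not correlated.

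The direct comparison of MASM + TBI with TBI asked which P450 genes MASM pretreatment moved in irradiated rats. By limma 0 of the 58 genes were called after adjustment, and 8 had an unadjusted p under 0.05 at any fold, where 16.5% of all genes did. Counts at an unadjusted p under 0.05 given below for smaller lists are to be read against these shares of all genes in the same comparison (25.3%, 20.5% and 16.5%). With the t-test of the methods the count was again 0 after adjustment, and 1 at the unadjusted threshold. Without control rat 3 or TBI rat 2, limma called 1. Over all genes 0.261% were called up and 0.603% down. With the unadjusted threshold and the fold, Cyp2b12 and Cyp19a1 lay higher and Cyp1b1 lower in MASM + TBI, 2 up and 1 down, where all genes gave 1.73% up and 6.09% down. Neither Cyp19a1 nor Cyp1b1 was well above background on any MASM + TBI array. The median difference of the 58 genes was 0.12.

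**Figure D1:**
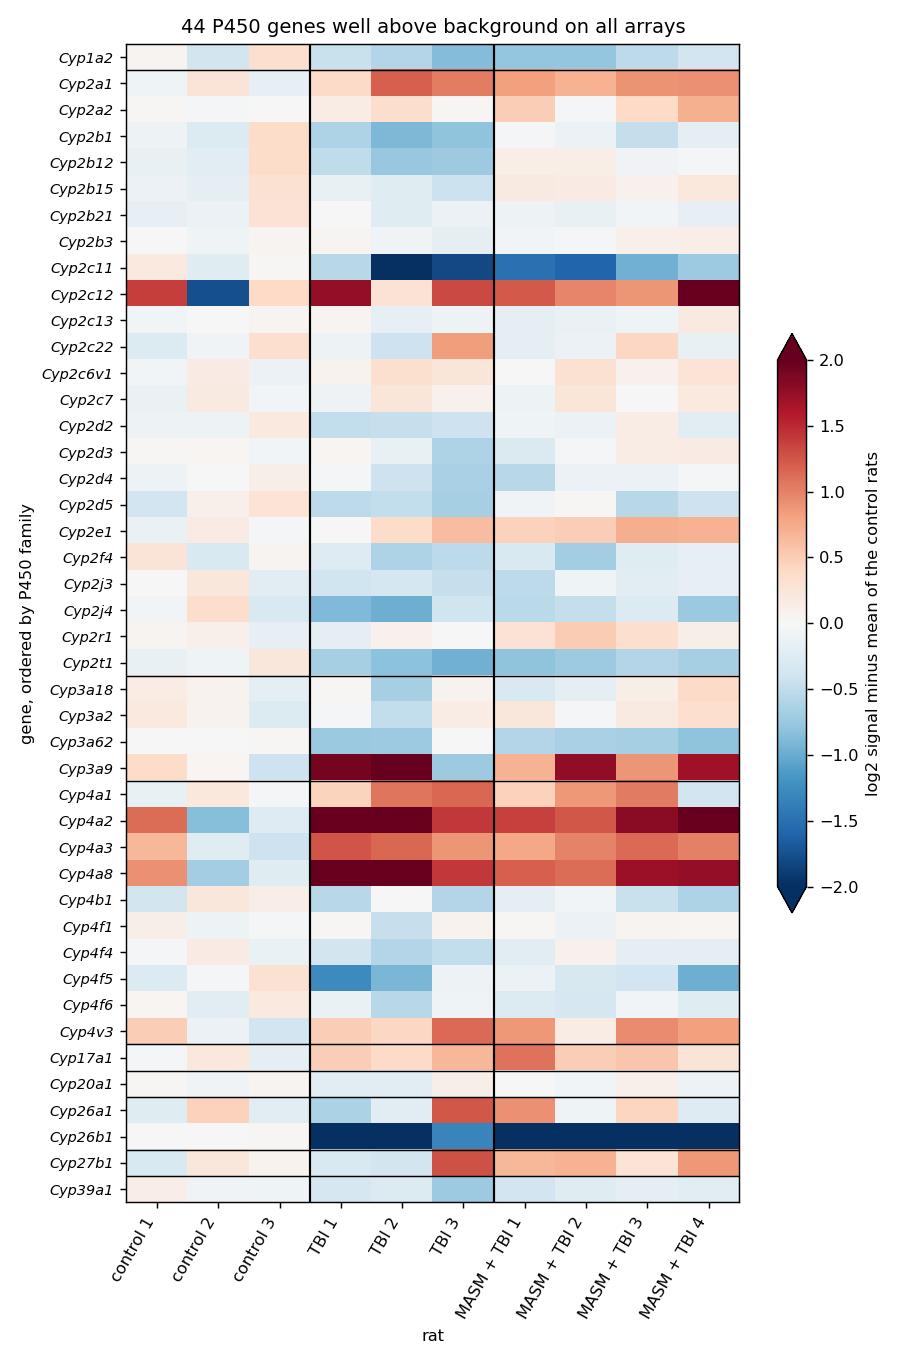
Signal of the 44 P450 genes well above background on all 10 arrays, as the log2 signal of each rat minus the mean of the 3 control rats (red higher, blue lower, colours saturating beyond 2 in either direction), with genes ordered by family (horizontal lines) and rats by group (vertical lines). Cyp26b1 is blue and Cyp4a2, Cyp4a3 and Cyp4a8 are red in all 7 irradiated rats, and Cyp2c12 varies among the control rats themselves.

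The 4 measured Cyp4a genes, which encode omega-hydroxylases of fatty acids and are classic PPAR-alpha targets, gave the highest positive differences in TBI rats among genes detected on all arrays, together with Cyp3a9 and Cyp2c12, which varied more. Cyp4a8 had signals of 13.85, 12.25 and 12.70 in control, 15.01, 15.02 and 14.35 in TBI, and 14.13, 14.05, 14.65 and 14.69 in MASM + TBI. Every irradiated rat lay above every control rat. Cyp4a8 was up-regulated after TBI by 1.86 [0.94, 2.78], or 3.63-fold, with an adjusted p of 0.0362, and stood at 1.44 [0.58, 2.3] after MASM + TBI with an adjusted p of 0.0878. Cyp4a3 measured 14.26, 13.34 and 13.18 in control, 14.84, 14.74 and 14.48 in TBI, and 14.37, 14.58, 14.72 and 14.59 in MASM + TBI, again without overlap between control and irradiated rats. It was up-regulated after TBI by 1.09 [0.49, 1.69] (adjusted p 0.0496), and the estimate after MASM + TBI was 0.97 [0.42, 1.53] (adjusted p 0.0787).

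Cyp4a2, a form more abundant in male rats, had the largest difference of the group and missed the threshold. Its control signals of 12.29, 10.33 and 10.92 spread widely, and the TBI rats gave 13.52, 13.53 and 12.59 and the MASM + TBI rats 12.55, 12.42, 12.98 and 13.36. The estimates were 2.03 [0.88, 3.18] after TBI (adjusted p 0.0548) and 1.64 [0.57, 2.72] after MASM + TBI (adjusted p 0.113). Cyp4a1 measured 12.51 to 12.87 in control, 13.10 to 13.81 in TBI and 12.28 to 13.70 in MASM + TBI, where rat 4 was below every control rat. Its estimates were 0.88 [0.06, 1.7] (adjusted p 0.184) and 0.49 [-0.27, 1.26] (adjusted p 0.532). In the direct comparison the 4 genes lay between -0.42 and -0.12, and 0 of 4 had an unadjusted p under 0.05. Control rat 1 was the highest control rat for Cyp4a2, Cyp4a3 and Cyp4a8 and the lowest for Cyp4a1. The Cyp4a3 call held in 1 of the 10 fits that left out 1 rat, that without control rat 1, and the other 9 gave adjusted p values of 0.0602 to 0.142. The Cyp4a8 call held without control rat 1, TBI rat 3 or MASM + TBI rat 3, and was lost without each other rat, with adjusted p values of up to 0.115. After MASM + TBI both genes became calls without control rat 1, with an adjusted p of 0.00509 for Cyp4a3 and 0.0187 for Cyp4a8, and Cyp4a3 did so in 4 and Cyp4a8 in 3 of 22 alternatives in all.

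The bases before the RefSeq starts of Cyp4a2, Cyp4a3 and Cyp4a8 are shown because these genes lie on the same chromosome and shared their direction. Of the 58 P450 genes, 46 were in the RefSeq promoter table (GRCr8), and Cyp4a1 was not one of them. Each line runs from 150 bases before the start to the base next to it, on the gene's own strand, which is the minus strand for these genes. Capitals mark matches to AGGTCA, the half-site that many nuclear receptors read, or to its reverse complement TGACCT. The stretches are chr5:134170909-134171058 for Cyp4a2, chr5:134352237-134352386 for Cyp4a3 and chr5:133970227-133970376 for Cyp4a8.
Cyp4a2: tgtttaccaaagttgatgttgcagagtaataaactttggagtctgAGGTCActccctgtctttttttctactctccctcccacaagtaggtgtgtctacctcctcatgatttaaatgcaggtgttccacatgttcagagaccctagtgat
Cyp4a3: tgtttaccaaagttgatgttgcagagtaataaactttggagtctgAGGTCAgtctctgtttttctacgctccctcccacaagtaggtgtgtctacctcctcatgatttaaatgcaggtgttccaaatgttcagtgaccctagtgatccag
Cyp4a8: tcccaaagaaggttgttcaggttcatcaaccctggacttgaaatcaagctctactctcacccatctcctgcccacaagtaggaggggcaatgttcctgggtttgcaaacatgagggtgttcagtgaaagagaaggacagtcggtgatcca
Those of Cyp4a2 and Cyp4a3 were 91.6% identical in a global alignment, and Cyp4a8 shared 55.0% with Cyp4a2 and 58.2% with Cyp4a3. Cyp4a2 and Cyp4a3 each had 1 match, with its first base at position -105, and Cyp4a8 had 0 in this window. The letters occurred in 8.8% of the 33469 promoters of the same length and in 9 of the 46 P450 genes in the table, or 19.6%. Since paralogs of this kind are close in sequence, a probe may read more than 1 of them, and the probe sequences were not analysed here.

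**Figure D2:**
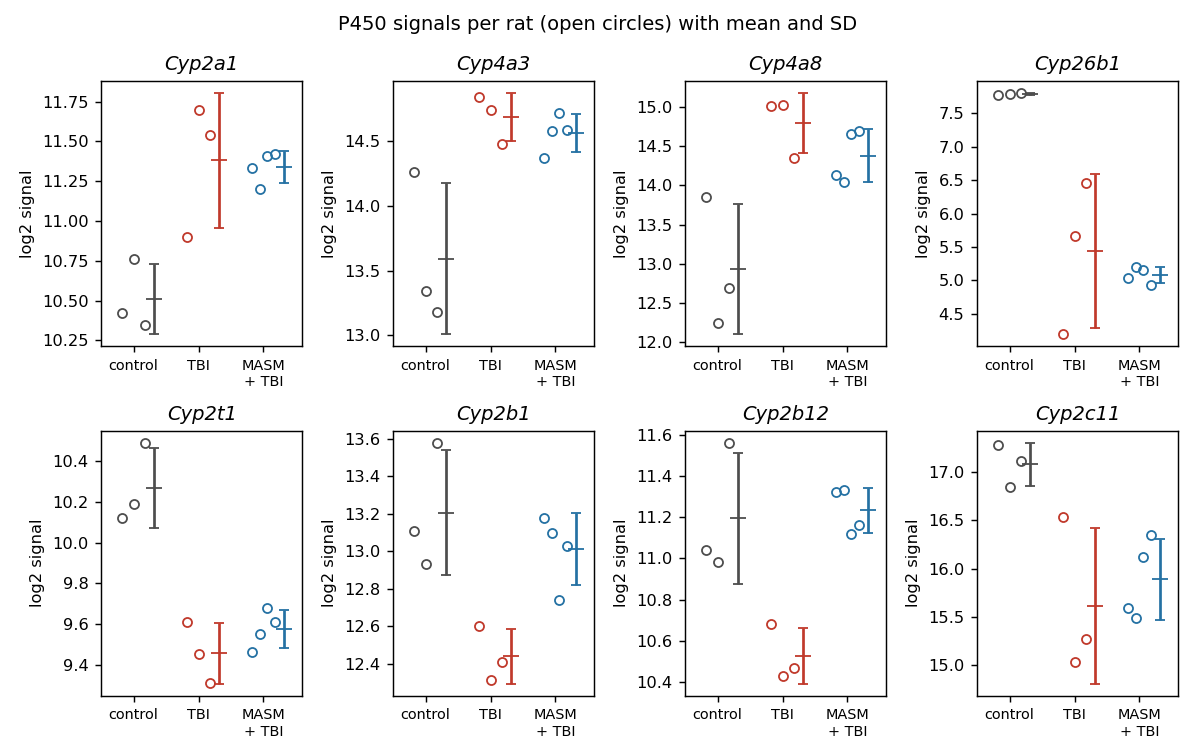
Log2 signal of 8 P450 genes in each rat (open circles) with the group mean and SD (bars), for 3 control, 3 TBI and 4 MASM + TBI rats; each panel has its own axis, which does not start at 0. The upper row shows Cyp2a1, Cyp4a3, Cyp4a8 and Cyp26b1 and the lower row Cyp2t1, Cyp2b1, Cyp2b12 and Cyp2c11. All but Cyp2c11 were called after TBI. That the TBI rats do not overlap the control rats in any panel therefore goes with the choice of genes.

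The Cyp2b genes include Cyp2b1, which is known for induction by phenobarbital through CAR. They held 2 of the 4 down-regulated P450 genes of TBI rats, and neither was called after MASM + TBI. Cyp2b1 measured 13.11, 12.93 and 13.58 in control, 12.60, 12.31 and 12.41 in TBI, and 13.18, 13.10, 12.74 and 13.03 in MASM + TBI. All 3 TBI rats lay below all other rats. Cyp2b1 was down-regulated after TBI with a difference of -0.76 [-1.18, -0.35], or 1.7-fold (adjusted p 0.0491), differed from control by -0.19 [-0.58, 0.2] after MASM + TBI, and stood 0.57 [0.18, 0.96] higher in MASM + TBI than in TBI (adjusted p 0.148). Cyp2b12 measured 11.04, 10.98 and 11.56 in control, 10.68, 10.43 and 10.47 in TBI, and 11.32, 11.33, 11.12 and 11.16 in MASM + TBI. The order was the same, with the 3 TBI rats lowest. It was down-regulated after TBI with a difference of -0.67 [-1.03, -0.31] (adjusted p 0.0482). The difference between MASM + TBI and TBI was 0.71 [0.37, 1.04], or 1.63-fold, with an unadjusted p of 0.00119 and an adjusted p of 0.0621, and that between MASM + TBI and control was 0.04 [-0.3, 0.38].

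Of the other Cyp2b genes, Cyp2b15 gave -0.27 [-0.59, 0.04] after TBI and 0.44 [0.15, 0.74] in the direct comparison (adjusted p 0.143). Cyp2b21 gave -0.12 [-0.41, 0.17] and 0.00 [-0.27, 0.27], and Cyp2b3 gave -0.08 [-0.29, 0.14] and 0.12 [-0.08, 0.32]. So 2 of the 5 Cyp2b genes were called down after TBI, with estimates below 0 for all 5, where 2.74% of all genes were called down and 6879 of 13426 had estimates below 0. By limma 0 of 5 were called after MASM + TBI, where 0 had an unadjusted p under 0.05 against control (20.5% of all genes) and 3 against TBI (16.5%). Of 9 measured P450 genes listed as CAR- or PXR-responsive, Cyp2a1 was up-regulated and Cyp2b1 down-regulated after TBI, beside 2.44% and 2.74% of all genes. Cyp2b12 was not in that list. The Cyp2b1 call held in 1 of the 10 fits that left out 1 rat, that without MASM + TBI rat 3, and the adjusted p of the other 9 was 0.0529 to 0.118. The Cyp2b12 call was lost in all 10, with an adjusted p of 0.0558 to 0.114, whichever control, TBI or MASM + TBI rat was left out, and its difference between MASM + TBI and TBI became a call in 5 of 20 alternatives, without control rat 3 (adjusted p 0.0258), with scaling to the 75th percentile (0.0385), with the normexp background correction (0.64, adjusted p 0.0456), without dim probes (0.0459) and with slide as a random block (0.0165). Over all 20 that adjusted p ran from 0.0165 to 0.259. In the random block fit the correlation within a slide was estimated at -0.133, and that fit cannot separate TBI from slide 2.

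The 4 probes of Cyp2b1 differed in size. The brightest, A_44_P311326, gave the values above. A_44_P311322 read 8.67, 8.23 and 9.74 in control, 6.52, 6.32 and 7.73 in TBI, and 8.96, 7.98, 7.95 and 7.81 in MASM + TBI, which made -2.02 [-3.18, -0.86] after TBI (adjusted p 0.0566) and 1.32 [0.23, 2.4] in the direct comparison. A_44_P311323 gave -1.11 [-1.86, -0.37] after TBI, whereas A_44_P191762, with 11.65 to 12.16 in control and 11.80 to 11.86 in TBI, gave -0.03 [-0.32, 0.25]. Thus 3 probes had estimates of -2.02 to -0.76 and the interval of the fourth excluded differences below -0.32. With the mean over the 4 probes the difference was -0.98 and the adjusted p 0.0629. For Cyp2b21 the bright probe gave the values near 0. Its dimmer probe read 4.09, 3.34 and 4.93 in control, 1.59, 1.97 and 3.06 in TBI, and 4.31, 3.70, 3.31 and 3.20 in MASM + TBI, but was well above background on only 1 array of each group, so the size of its differences is not firm. Which transcript each probe reads was not tested.

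**Figure D3:**
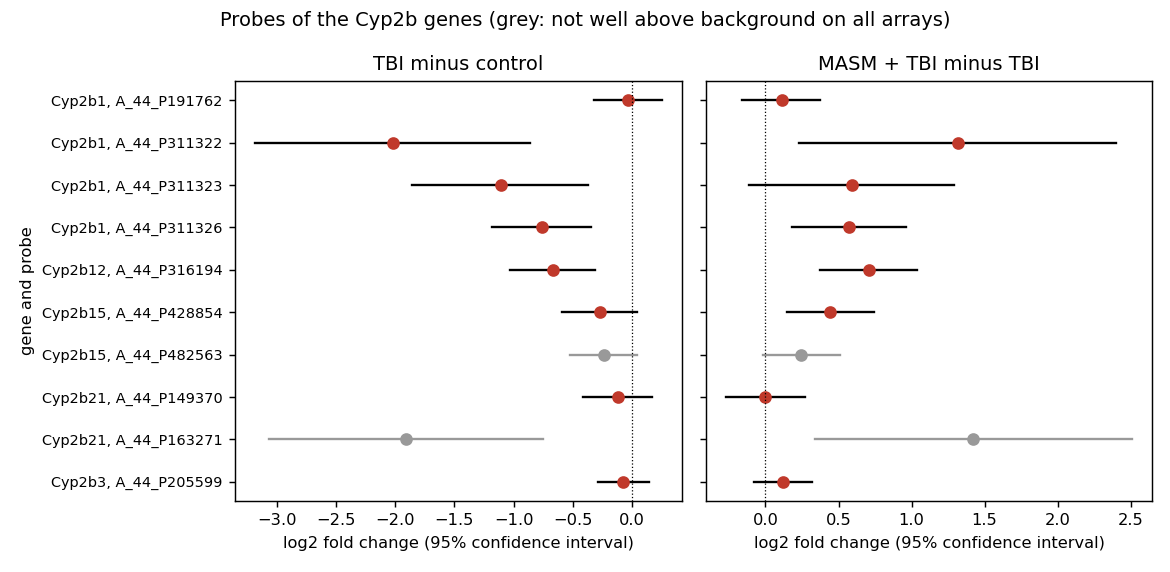
Log2 fold change with its 95% confidence interval for each of the 10 probes of the 5 Cyp2b genes, TBI minus control on the left and MASM + TBI minus TBI on the right, with 3 control, 3 TBI and 4 MASM + TBI rats (grey for probes that were not well above background on all arrays). Probe A_44_P311322 lies farthest below 0 on the left among those well above background on all arrays, A_44_P191762 lies near 0 in both, and the grey A_44_P163271 was well above background on 3 arrays, so its position is not firm.

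The bases before the starts of Cyp2b1 and Cyp2b12 are shown because both were down-regulated. They lie on the plus strand of GRCr8, at chr1:90645969-90646118 for Cyp2b1 and chr1:91135144-91135293 for Cyp2b12, from 150 bases before the RefSeq start to the base next to it, and capitals again mark AGGTCA or its reverse complement.
Cyp2b1: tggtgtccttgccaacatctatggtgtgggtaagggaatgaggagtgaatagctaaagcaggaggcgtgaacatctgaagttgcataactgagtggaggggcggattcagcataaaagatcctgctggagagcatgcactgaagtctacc
Cyp2b12: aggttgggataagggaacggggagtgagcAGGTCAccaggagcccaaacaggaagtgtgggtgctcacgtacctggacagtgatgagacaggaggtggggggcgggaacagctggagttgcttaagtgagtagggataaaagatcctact
These 2 stretches were 48.8% identical in a global alignment. Cyp2b12 had 1 match, with its first base at position -121, and Cyp2b1 had 0 in this window.

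Of the forms that differ between the sexes, the female-predominant Cyp2a1, a testosterone hydroxylase, was up-regulated after TBI. The male-biased forms Cyp2c11, also a testosterone hydroxylase, and Cyp4a2 were not called and had estimates of opposite sign, below 0 for Cyp2c11 and above 0 for Cyp4a2 as given above. Cyp2c11 measured 17.28, 16.84 and 17.11 in control, 16.53, 15.04 and 15.27 in TBI, and 15.59, 15.49, 16.12 and 16.35 in MASM + TBI. Every irradiated rat lay below every control rat. The estimates were -1.46 [-2.36, -0.57] after TBI (adjusted p 0.0683) and -1.19 [-2.03, -0.36] after MASM + TBI (adjusted p 0.135), so neither was called. Without TBI rat 1, the highest of its group, Cyp2c11 became a call in both, at -1.92 (adjusted p 0.0135) and -1.19 (adjusted p 0.0429). After TBI Cyp2c11 was called in 4 of 20 alternatives, with an adjusted p of up to 0.376 over all 20. Besides the fit without TBI rat 1 these were scaling to the 75th percentile (adjusted p 0.0418), leaving out dim probes (0.0411) and slide as a random block (-1.50, adjusted p 0.0165). The random block had an estimated correlation within a slide of -0.133 and cannot separate TBI from slide 2. Cyp2a1 measured 10.42, 10.76 and 10.35 in control, 10.90, 11.70 and 11.54 in TBI, and 11.33, 11.20, 11.41 and 11.42 in MASM + TBI. It was up-regulated after TBI by 0.87 [0.4, 1.34], or 1.83-fold (adjusted p 0.0481), and stood at 0.83 [0.39, 1.27] after MASM + TBI (adjusted p 0.0619). The TBI call held in 1 of the 10 fits that left out 1 rat, that without TBI rat 1, and the others gave an adjusted p of 0.06 to 0.146. After MASM + TBI Cyp2a1 became a call in 6 of 22 alternatives, among them the fit without that rat (adjusted p 0.0165).

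The remaining members of these lists did not share a call. Of 6 male-biased forms 0 were called by limma in any comparison, with 2 at an unadjusted p under 0.05 after TBI (Cyp4a2 above control and Cyp2c11 below), 3 after MASM + TBI and 0 between them, against the 25.3%, 20.5% and 16.5% of all genes. Cyp2c13, Cyp3a2 and Cyp3a18 had estimates between -0.19 and 0.18 in both comparisons with control. Cyp2a2 gave 0.18 [-0.22, 0.57] after TBI and 0.40 [0.03, 0.76] after MASM + TBI. Of 4 female-biased forms 1 was called up after TBI, Cyp2a1, where 2.44% of all genes were, and all 4 had estimates above 0, as had 6547 of all 13426 genes. Cyp2c12, the female-specific steroid sulfate hydroxylase, ranged from 6.73 to 9.87 over the control rats alone, from 8.78 to 10.24 in TBI and from 9.37 to 10.52 in MASM + TBI. Its differences of 1.12 [-0.6, 2.83] and 1.27 [-0.33, 2.88] were within that spread. Cyp2c7 gave 0.08 and 0.09, and its 4 probes gave 0.08 to 0.32 after TBI. Of the growth hormone pathway, Stat5b differed by 0.11 [-0.31, 0.53] after TBI. The 3 probes of the receptor Ghr gave -0.26 [-0.58, 0.06] for the brightest, -0.58 [-1.03, -0.13] (adjusted p 0.124) and -0.66 [-0.97, -0.35] for the dimmest, which alone was called (adjusted p 0.0305). The repressor Bcl6 had control signals of 12.86, 11.72 and 12.50 and TBI signals of 9.08, 11.60 and 8.61, a difference of -2.59 [-4.39, -0.8] (adjusted p 0.0962), and its second probe gave -2.33 (adjusted p 0.114).

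Cyp2t1, another gene of family 2, was down-regulated in both irradiated groups. It measured 10.12, 10.19 and 10.49 in control, 9.61, 9.45 and 9.31 in TBI, and 9.46, 9.55, 9.68 and 9.61 in MASM + TBI. The lowest control rat was above all irradiated rats. The difference was -0.81 [-1.09, -0.53] after TBI, or 1.76-fold (adjusted p 0.0103), and -0.69 [-0.96, -0.43] after MASM + TBI, or 1.62-fold (adjusted p 0.0199). The TBI call held in all 10 fits that left out 1 rat, the only P450 call of that comparison for which this was so, with an adjusted p of 0.0142 to 0.0312. The MASM + TBI call held in 5 of them and was lost without control rat 2 or 3 or MASM + TBI rat 1, 2 or 4, at an adjusted p of up to 0.0641. Within slide 1, where MASM + TBI rat 3 stood against the 3 control rats, the difference was -0.59 and the call was lost (adjusted p 0.396), as it was with slide as a fixed block (adjusted p 0.213), and both fits rest on that rat alone.

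The remaining family 2 genes held no call. Cyp2j4, an arachidonic acid epoxygenase, gave -0.75 [-1.24, -0.27] after TBI (adjusted p 0.0797) and -0.50 [-0.96, -0.05] after MASM + TBI, and Cyp2j3 gave -0.40 [-0.73, -0.07] and -0.25 [-0.56, 0.06]. The second probe of Cyp2j3 gave -0.01 after TBI. The 4 Cyp2d genes, which oxidise many basic drugs, had estimates of -0.56 to -0.25 after TBI and of 0.16 to 0.39 in the direct comparison, and 0 of 4 were called by limma, with 2 at an unadjusted p under 0.05 after TBI (25.3% of all genes) and 1 in the direct comparison (16.5%). Cyp2d2 measured 13.48 to 13.77 in control, 13.09 to 13.16 in TBI and 13.35 to 13.73 in MASM + TBI, so the TBI rats were the 3 lowest. Its differences were -0.45 [-0.73, -0.18] after TBI (adjusted p 0.0668) and 0.39 [0.13, 0.65] between MASM + TBI and TBI (adjusted p 0.141). Cyp2e1, the ethanol- and acetaminophen-oxidising form, gave 0.33 [-0.05, 0.71] after TBI and 0.59 [0.24, 0.95] after MASM + TBI (adjusted p 0.0879), which became a call in 3 of 22 alternatives, among them that without TBI rat 1 (adjusted p 0.0459). Cyp2f4 gave -0.47 [-0.89, -0.04] and -0.35 [-0.75, 0.04], and Cyp2c22 and Cyp2c6v1 gave 0.11 and 0.21 after TBI.

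In family 1, whose genes answer to the aryl hydrocarbon receptor, 0 of 3 genes were called by limma, with 2 at an unadjusted p under 0.05 against control in each irradiated group (25.3% and 20.5% of all genes) and 1 between these groups (16.5%). Among them Cyp1a1 was well above background on 4 arrays and Cyp1b1 on 1, so these counts rest in part on signals near background. Cyp1a2, the constitutive hepatic form, measured 14.56, 14.14 and 14.84 in control, 14.07, 13.93 and 13.65 in TBI, and 13.73, 13.73, 13.98 and 14.12 in MASM + TBI. All irradiated rats lay below the lowest control rat, by a small margin. The differences were -0.63 [-1.09, -0.18] after TBI (adjusted p 0.104) and -0.62 [-1.05, -0.2] after MASM + TBI (adjusted p 0.123), and the second probe gave -0.53 and -0.37. Cyp1a1, the inducible form, was well above background in 2 of 3 control rats, 2 of 3 TBI rats and 0 of 4 MASM + TBI rats. Its control mean was at least 1.26-fold above MASM + TBI, against the lowest signals well above background there (adjusted p of the fit 0.121). That bound was lost without control rat 1 or 3, and leaving out 1 rat at a time gave adjusted p values of 0.0255 (without control rat 2, the only such fit with a call) to 0.342. With normexp the estimate was only -0.21, and it too rests on MASM + TBI signals that were not well above background. The mean of Cyp1a1 was 4.18 in control, and in MASM + TBI it lay below the lowest signals well above background (mean 3.84). Cyp1b1 was well above background in 1 TBI rat only.

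In family 3, the main drug-metabolising family of liver, 0 of 4 genes were called by limma, and 1 had an unadjusted p under 0.05 against control in each irradiated group, Cyp3a62. Cyp3a2 gave -0.12 [-0.55, 0.32] after TBI, 0.18 [-0.23, 0.59] after MASM + TBI and 0.30 [-0.11, 0.71] between them, and Cyp3a18 gave -0.19, 0.00 and 0.19. Cyp3a62 measured 9.69, 9.69 and 9.73 in control, 8.95, 8.98 and 9.71 in TBI, and 9.12, 9.05, 9.03 and 8.90 in MASM + TBI. TBI rat 3 stayed at the control level, and the other irradiated rats lay below it. The differences were -0.49 [-0.92, -0.06] (adjusted p 0.164) and -0.68 [-1.08, -0.28] (adjusted p 0.0859). Cyp3a9 showed the reverse arrangement, with 9.28, 8.96 and 8.51 in control, and 10.84, 10.99 and 8.20 in TBI. In MASM + TBI it measured 9.62, 9.81 and 10.61 in rats 1, 3 and 4, with rat 2 above them, and all 4 were above the control rats. Again TBI rat 3 stood apart, below all control rats, and the differences of 1.09 [-0.51, 2.69] and 1.27 [-0.23, 2.76] had adjusted p values of 0.388 and 0.386.

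Outside Cyp4a, family 4 held no call. The 4 Cyp4f genes, which hydroxylate leukotrienes and other long-chain lipids, had estimates of -0.76 to -0.12 after TBI. Cyp4f4 measured 14.95, 15.14 and 14.83 in control, 14.61, 14.39 and 14.47 in TBI, and 14.75, 15.06, 14.79 and 14.78 in MASM + TBI. The TBI rats were the 3 lowest, and the differences were -0.48 [-0.75, -0.21] after TBI (adjusted p 0.0539) and 0.35 [0.1, 0.61] between MASM + TBI and TBI (adjusted p 0.162). Cyp4f5 gave -0.76 [-1.5, -0.02] and Cyp4b1 -0.38 [-0.9, 0.15] after TBI. Cyp4v3, a fatty acid hydroxylase, gave 0.68 [-0.01, 1.37] and 0.70 [0.05, 1.34], and its second probe 0.83 and 0.49.

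Cyp26b1, which inactivates retinoic acid, was down-regulated in both irradiated groups. Its control signals of 7.77, 7.78 and 7.80 were nearly equal, those of TBI were 4.20, 5.66 and 6.46, and those of MASM + TBI were 5.04, 5.20, 5.16 and 4.93. No irradiated rat came near the control rats, and the TBI rats spread over the whole MASM + TBI range and beyond it on both sides. The difference was -2.34 [-3.4, -1.29] after TBI, or 5.08-fold (adjusted p 0.027), and -2.70 [-3.69, -1.71] after MASM + TBI, or 6.5-fold (adjusted p 0.0177). Between MASM + TBI and TBI it was -0.36 [-1.35, 0.63]. Within slide 1, MASM + TBI rat 3 was -2.63 from the 3 control rats, again a value of 1 rat, and the call held there and with slide as a fixed block. The TBI call was lost without control rat 1, 2 or 3 or TBI rat 2, at an adjusted p of 0.0567 to 0.0842, and the MASM + TBI call without control rat 2 or 3 or MASM + TBI rat 1 or 4, at 0.0528 to 0.0702. The size depended on the background correction, and the normexp method gave -1.02 after TBI (adjusted p 0.00254) and -1.19 after MASM + TBI (adjusted p 0.000808), smaller than those of Cyp2c11 by that method (-1.60 and -1.31). Its relative Cyp26a1, the hepatic form induced by retinoic acid, gave 0.13 [-1.01, 1.27] and 0.25 [-0.82, 1.32], with TBI rat 3 the highest of all rats at 8.27.

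Hepatic stellate cells store retinoids, so their markers are given beside Cyp26b1. Of 5 measured stellate markers 1 was called down in both comparisons with control, where 2.74% and 1.97% of all genes were. It was Lrat, which makes retinyl esters, at -0.62 after TBI (adjusted p 0.0116) and -0.60 after MASM + TBI (adjusted p 0.0147), and its second probe was called in both too, at -0.77 and -0.62. The list did not move one way. In each comparison with control 2 of the 5 had estimates above 0, Dcn (0.72 and 0.51) and Col1a1 (0.01 and 0.12). Col1a2 gave -0.48 and -0.44, and Des gave -0.03 and -0.43. The median was -0.03 after TBI and -0.43 after MASM + TBI. By limma 2 of 5 had an unadjusted p under 0.05 after TBI and 3 after MASM + TBI (25.3% and 20.5% of all genes). All 5 were detected above background on each of the 10 arrays, and their summed intensity was 8090 to 10400 in control, 6130 to 8140 in TBI and 6660 to 7700 in MASM + TBI. The lymphocyte markers summed to 197 to 390 in MASM + TBI, beside the values of control and TBI given above, and 4 of 7 were called down after TBI and 3 after MASM + TBI, against the same 2.74% and 1.97%. The part of either cell type in the P450 results was not tested, and in bulk liver fewer cells of a type and less RNA per cell cannot be told apart. Kupffer cell markers summed to 60100 to 89600, 61300 to 114000 and 47700 to 60600, with 0 of 8 called by limma in any comparison, although when MASM + TBI was set against TBI all 8 had estimates below 0, with a median of -0.81 beside 0.01 over all genes, 6 had an unadjusted p under 0.05 (16.5% of all genes), and 5 of them were also past 1.5-fold (6.09% of all genes, downward). What part these cells have in the P450 differences of that comparison was not tested. Endothelial markers summed to 12800 to 15700, 16900 to 20800 and 14700 to 18600, and cholangiocyte markers to 393 to 527, 348 to 654 and 345 to 500, with 0 calls by limma among 4 and 2 measured, and with 2 endothelial markers at an unadjusted p under 0.05 against control in each irradiated group.

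Most P450 genes of steroid hormone synthesis were not well above background on all arrays. Of 7, 4 were above it on no array, Cyp11a1, Cyp11b1, Cyp11b2 and Cyp19a1, and only Cyp17a1 on all of them, and 0 were called by limma, with 1 at an unadjusted p under 0.05 in each comparison. Cyp17a1, the steroid 17-alpha-hydroxylase, measured 9.50, 9.73 and 9.32 in control, 10.01, 9.90 and 10.18 in TBI, and 10.60, 10.01, 10.08 and 9.77 in MASM + TBI. All irradiated rats lay above the control rats, and the differences were 0.51 [0.04, 0.98] (adjusted p 0.179) and 0.60 [0.16, 1.04] (adjusted p 0.151). Of the adrenal markers, the corticotropin receptor Mc2r was well above background on no array, and the 3 measured markers summed to 3010 to 3210, 1740 to 3410 and 2550 to 7330, with 0 at an unadjusted p under 0.05 in any comparison by limma. Among the vitamin D enzymes, the 25-hydroxylase Cyp2r1 gave -0.03 [-0.32, 0.25] after TBI and 0.32 [0.05, 0.59] after MASM + TBI, and the 1-alpha-hydroxylase Cyp27b1 gave 0.20 [-0.73, 1.13] and 0.62 [-0.25, 1.49], with TBI rat 3 the highest at 6.31. Cyp39a1, an oxysterol hydroxylase, gave -0.44 [-0.74, -0.14] after TBI (adjusted p 0.0922), and the orphan Cyp20a1 gave -0.10 [-0.34, 0.14].

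The genes that serve or control the P450 enzymes were counted in 2 lists. Of 17 measured receptors and other regulators, 1 was up-regulated and 1 down-regulated after TBI, where all genes gave 2.44% and 2.74%. An unadjusted p under 0.05 was found for 9 of the 17 after TBI, against 25.3% of all genes, and 13 had estimates below 0, with a median of -0.31. By limma 0 were called after MASM + TBI, with 4 at an unadjusted p under 0.05 against control and 5 against TBI, where all genes gave the 20.5% and 16.5% above. Nr1i3, which encodes CAR, measured 8.99, 8.43 and 9.37 in control, 7.96, 7.90 and 7.97 in TBI, and 8.65, 8.51, 8.58 and 8.78 in MASM + TBI. The TBI rats were the 3 lowest and close to each other. Nr1i3 was down-regulated after TBI with a difference of -0.98 [-1.45, -0.51], or 1.98-fold (adjusted p 0.0327), differed from control by -0.30 [-0.74, 0.14] after MASM + TBI, and was 0.69 [0.25, 1.13] higher in MASM + TBI than in TBI (adjusted p 0.133). Its second probe was also called down after TBI, at -0.88 (adjusted p 0.0352). Nr1i2, which encodes PXR, measured 12.50, 12.62 and 12.38 in control, 11.85, 12.06 and 11.92 in TBI, and 12.18, 12.17, 12.29 and 12.30 in MASM + TBI. The 3 groups did not overlap, with TBI lowest. Its difference after TBI of -0.56 [-0.77, -0.34] had an adjusted p of 0.0145 and stayed under 1.5-fold, and that between MASM + TBI and TBI was 0.29 [0.1, 0.49] (adjusted p 0.146).

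Nr1h4, the bile acid receptor FXR, was up-regulated after TBI by 0.66 [0.31, 1.0], or 1.58-fold (adjusted p 0.0431), from 9.02 to 9.21 in control to 9.63 to 9.89 in TBI. It stood at 0.49 [0.17, 0.82] after MASM + TBI (adjusted p 0.112). The repressor Nr0b2, or SHP, gave -1.57 [-2.51, -0.63] after TBI (adjusted p 0.0636). Ppara measured 9.43, 9.08 and 9.41 in control, 8.61, 8.56 and 8.93 in TBI, and 9.07, 8.45, 9.47 and 9.42 in MASM + TBI, a difference of -0.61 [-1.21, -0.02] after TBI (adjusted p 0.203), below 0 where the Cyp4a estimates were above 0. The Nr1i3 call was lost without control rat 1 or 3, TBI rat 1, 2 or 3 or MASM + TBI rat 1, with an adjusted p of up to 0.0887, and its difference between MASM + TBI and TBI became a call in 4 of 20 alternatives, among them that without control rat 2 (adjusted p 0.0395). Without control rat 3 or TBI rat 2 the Nr1i2 difference reached -0.61 and became a call. The Nr1h4 call held only without MASM + TBI rat 1 or 3, and the adjusted p reached 0.114 without the others.

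**Figure D4:**
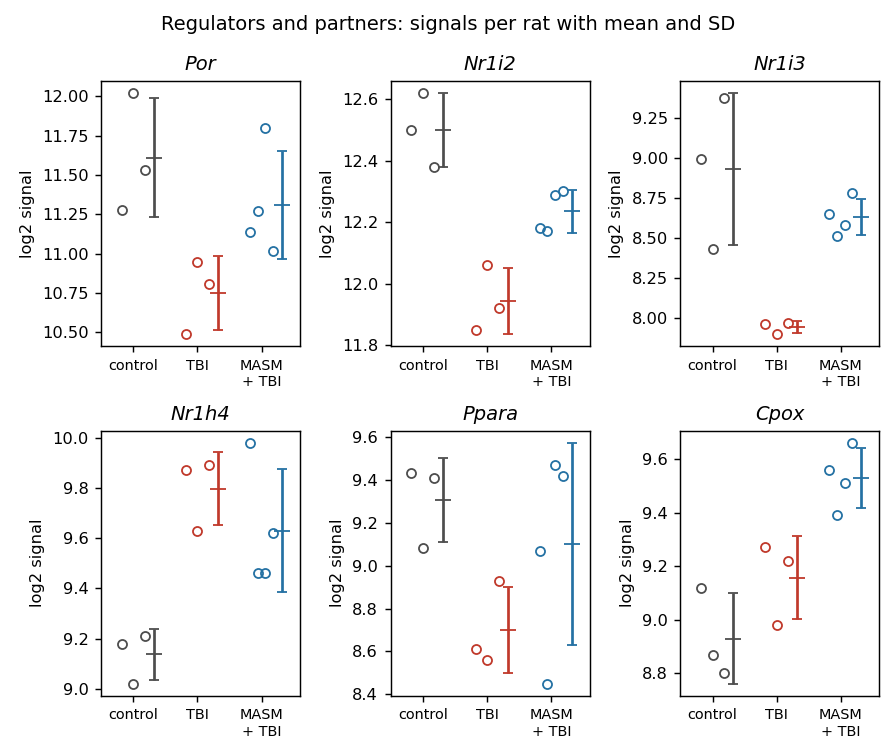
Log2 signal of 6 regulators and partners of the P450 enzymes in each rat (open circles) with the group mean and SD (bars), for 3 control, 3 TBI and 4 MASM + TBI rats; each panel has its own axis, which does not start at 0. For Por, Nr1i2 and Nr1i3 the TBI rats are the 3 lowest, for Nr1h4 all irradiated rats are above the control rats, and for Cpox the MASM + TBI rats are the highest.

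Of the 18 genes of electron supply and heme metabolism, 0 were called by limma after TBI, with 5 at an unadjusted p under 0.05, near the 25.3% of all genes, and 1 was called up after MASM + TBI (0.931% of all genes), with 5 at an unadjusted p under 0.05 (20.5%). In the direct comparison 0 were called, again with 5 at an unadjusted p under 0.05, where all genes gave 16.5%. Por, the reductase that all microsomal P450 enzymes depend on, measured 11.28, 12.02 and 11.53 in control, 10.49, 10.95 and 10.81 in TBI, and 11.14, 11.27, 11.80 and 11.02 in MASM + TBI. The TBI rats were the 3 lowest, and the differences were -0.86 [-1.43, -0.28] after TBI (adjusted p 0.0882), -0.30 [-0.84, 0.24] after MASM + TBI and 0.56 [0.02, 1.09] between them (adjusted p 0.277). Cpox, a mitochondrial enzyme of heme synthesis, measured 9.12, 8.87 and 8.80 in control, 9.27, 8.98 and 9.22 in TBI, and 9.56, 9.39, 9.51 and 9.66 in MASM + TBI. It was up-regulated after MASM + TBI by 0.60 [0.34, 0.86], or 1.52-fold (adjusted p 0.0324), and gave 0.22 [-0.05, 0.5] after TBI. That call was lost without control rat 2 or 3 or MASM + TBI rat 1, 3 or 4, at an adjusted p of up to 0.12, and also within slide 1, where the difference of MASM + TBI rat 3 was 0.58, and with slide as a fixed block. Alas1, the first and limiting enzyme of heme synthesis, gave 0.47 [0.01, 0.93] after TBI (adjusted p 0.202), and cytochrome b5 (Cyb5a) gave 0.06 [-0.18, 0.29]. The heme oxygenase Hmox2 gave -0.53 after MASM + TBI at an adjusted p of 0.0338 and stayed under 1.5-fold, while its dimmer probe gave -0.80 (adjusted p 0.048) and was past it.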

How the data were processed

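For each of 10 rats, liver RNA labelled with 1 dye was hybridised to 1 Agilent array (3 control, 3 TBI and 4 MASM + TBI). The authors deposited the intensity of each spot from Feature Extraction 10.7.3.1, per the labels and file headers, on a linear scale with background subtracted and no normalization between arrays. After control and outlier spots were dropped, log2 intensities were quantile normalized as in the methods, and spots of the same probe were averaged. The values in the deposited series table did not differ from those of the scanner files (largest difference 0). Groups, replicate numbers and dose came from the labels.

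Symbols came from the file's accessions, matched to the RefSeq and Ensembl accessions of a RefSeq gene table, giving 16968 of 41012 probes a symbol. The file's gene names were not searched. Cyp2b2, Cyp3a23-3a1 and Ahr matched no probe by accession and were not analysed here, which does not show that the array lacks them. Promoters came from a RefSeq table of GRCr8. Since the array rests on another assembly, no probe positions are given.

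A model with 3 group means was fitted to all 10 arrays with limma 3.58.1 in R 4.3.3 (prior degrees of freedom 1.43), and Benjamini-Hochberg adjustment ran over 40945 probes with a value on every array. The members, the gene lists and the tests were chosen with earlier results of these data known, and p-values over the lists alone are not given. Full statistics were given for called genes and for the main hepatic forms, and other members by name with their values. Stat5b, Ghr, Bcl6, Nr0b2, Alas1, Cyb5a and Hmox2 were outside this rule and were named after their values were seen.

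As alternatives the fit was repeated with scaling to the 75th percentile, normexp with an offset of 50 on median signals (the files hold no mean signals), the deposited table, dim probes left out, 2 groups per model, the methods' t-test (their form of it is not stated, and Welch's was used here on the same log2 values), a trended and robust prior, a block by replicate number, slide as a random or fixed block, the mean over the probes of a gene, and each rat left out in turn. Where every array of a group read a probe as not well above background, only a bound is given, beside the normexp estimate for Cyp1a1. The figures were drawn with matplotlib 3.10.9 in Python 3.11.15 and promoters aligned with biopython 1.88.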

Additional observations from a re-analysis of the deposited data

Results flagged for a closer look

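Among the 4 MASM + TBI rats, 1 rat lay far from the other 3 for 5 of 50 genes, relative to the group's range. The 50 were the 44 P450 genes well above background on all 10 arrays and Cpox, Nr1h4, Nr1i2, Nr1i3, Por and Ppara. Chance alone flags about 1 in 20 such groups. Cyp2c22 read 10.57 in rat 3, where the next rat was at 10.04. Cyp2d4 read 11.91 in rat 1, below 12.35 in the next rat. Rat 2 was lowest for Cyp4f1 at 16.30 (next 16.44) and for Cyp4v3 at 9.18 (next 9.85), and highest for Cyp4f4 at 15.06 (next 14.79). MASM + TBI rat 3 was also the one whose array shared slide 1 with the control rats. The groups of 3 rats were too small for this comparison.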

How the results depend on the processing

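The differences of named genes that were calls had 246 values under the alternatives, of which 131 kept the call and 115 lost it. Those that were no calls had 1053, of which 989 kept their direction without a call, 25 changed sign without one and 39 became calls, and 0 calls reversed. The fit on the deposited table repeated the main fit, as its largest difference from the scanner values was 0. It therefore kept each of the 12 calls by construction, and these values are among the 131. Its values for the differences that were no calls are likewise among the 989. Counts of calls moved as well, and 3 or 4 rats a group limit what can be told. The cause of these moves was not tested.

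After TBI, the 7 P450 calls became 11 with scaling to the 75th percentile, 12 with slide as a random block, and 0 with 2 groups per model or with the methods' t-test, and the 14 at the unadjusted threshold became 5 with that t-test. The 2 calls among regulators and partners became 5, 6, 0 and 0 in the same order and 1 with normexp. Their 7 at the unadjusted threshold became 4 with normexp. With slide as a random block the correlation within a slide was estimated at -0.133. A correlation below 0 can narrow the errors of group means, and this fit cannot separate TBI from slide 2. Calls gained with it therefore do not show that a difference is free of the slide.

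After MASM + TBI against control, the 2 P450 calls became 4 with normexp, 5 without dim probes, 5 with 2 groups per model, 1 with the methods' t-test, 8 with slide as a random block, and 1 (Cyp26b1, with the Cyp2t1 call lost) with slide as a fixed block or within slide 1. The 13 at the unadjusted threshold became 8 with normexp and 7 within slide 1, where MASM + TBI is 1 rat assumed to vary like the others. The 1 partner call became 0 with normexp, the t-test, the fixed block or within slide 1, and 2 with the random block or the mean over probes, and the 2 at the unadjusted threshold became 0 with normexp, the fixed block or within slide 1.

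Between MASM + TBI and TBI, the 0 P450 calls by limma (8 at an unadjusted p under 0.05) became 5 with the 75th percentile, 1 with normexp, 1 without dim probes and 2 with the random block. The 3 at the unadjusted threshold became 6 with the 75th percentile, 1 with normexp, the t-test or without dim probes, and 5 with the mean over probes. The 0 partner calls became 1 with the 75th percentile, 2 groups per model or the random block, and the 4 at the unadjusted threshold became 2 with normexp and 1 with the t-test.

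Without 1 rat at a time, the counts after adjustment ran from 1 to 7 (P450) and 0 to 2 (partners) after TBI, from 0 to 5 and 0 to 2 after MASM + TBI against control, and from 0 to 1 and 0 to 1 between MASM + TBI and TBI. At the unadjusted threshold they ran from 10 to 16 and 6 to 9, from 10 to 15 and 1 to 4, and from 2 to 5 and 2 to 6.

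The replicate numbers of the labels did not pair the rats: deviations of rats with the same number correlated at -0.125 to 0.169. With the replicate number as a block, the P450 calls were 1 after TBI (Cyp4a1, adjusted p 0.0459, and 0 of the 7), 0 after MASM + TBI and 0 between them, and the partner calls were 1, 0 and 0. At the unadjusted threshold the block gave 15, 13 and 2 P450 calls and 7, 2 and 5 partner calls.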
